A study of Mus musculus with 13 samples.

Results

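The comparison described here is that of RNA precipitated with Z22, an antibody against left-handed Z-form nucleic acid, from cells given 5-AZA-CdR together with ADAR1i-124 and from cells given ADAR1i-124 alone. It asks what DNA demethylation adds to the RNA recovered by Z22 when ADAR1 is inhibited. The members were chosen by label: 2 of the 13 libraries of the series, 1 per condition, in which 13708 of 54532 genes averaged 1 or more counts in every 1000000 (CPM) over both libraries. All cells were YUMM1.7, a mouse melanoma line labelled wild type, and 13 libraries were made from them: 4 of total RNA, 4 of RNA precipitated with Z22, 4 with J2 (an antibody against double-stranded RNA) and 1 with IgG. ADAR1i-124 is a small-molecule ADAR1 inhibitor, given at 10 µM for 12 h in the single treatment, and 5-AZA-CdR is a DNA methyltransferase inhibitor, given at 1 µM for 72 h. DMSO was the vehicle. The combination was described as 5-AZA-CdR first and the inhibitor after it for 12 h. A legend of the supplement gives 10 µM and, as a further dose, 1 µM of the inhibitor for combined treatment, and the labels do not say which the precipitated libraries had. The labels also do not give how the IgG cells were treated. All values describe this 1 cell line.

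ADAR1 deaminates adenosine to inosine in double-stranded RNA and carries a Z-nucleic-acid-binding domain in its long isoform. ZBP1 is the other mammalian protein with such domains, and once bound to Z-form RNA it signals through RIPK3 and MLKL towards necroptosis. 5-AZA-CdR traps the maintenance methyltransferase on DNA, and cells that divide in its presence lose methylation at germline genes, satellite repeats and endogenous retroviruses, whose transcripts can pair into double strands.

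The Z22 library of the combination held 9146858 counts and that of ADAR1i-124 alone 14663357. There was 1 library per condition, so no difference below has a replicate check and no test was possible. Each gene is given as its CPM in both libraries and as a log2 change, log2 of the CPM ratio after adding 0.5 CPM to each. The interval after a change is the exact (Clopper-Pearson) 95% range of the plain ratio of shares. It covers counting error only, and because the offset pulls low genes towards 0, a change can lie below its own interval. A gene is said to have risen or fallen when it changed at least 4-fold. A count of 3, the limit that a count of 0 allows, corresponds to 0.328 CPM in the combination library and 0.205 CPM in that of ADAR1i-124 alone.

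Several properties of the libraries bear on every value. Across the 13708 genes the precipitates ranked genes much as IgG did, with a Spearman correlation with IgG of 0.97 for ADAR1i-124 alone and 0.90 for the combination. The correlation between the Z22 and J2 libraries of the same treatment was 0.98 for both. The total RNA library of the combination held 1245894 counts and correlated with the Z22 library of the same treatment at 0.25, so no total RNA partner was used, and more transcript and a larger Z22-bound share of it cannot be told apart. The Z22 library of DMSO-treated cells stood apart, with 34.9% of its counts on the ribosomal-RNA-like locus Gm42418 against 14.6% and 15.8% in the ADAR1i-124 and combination libraries. Of 7 melanocyte markers Mitf was detected at 9.68 and 21.4 CPM, Pmel had 2 counts in each library, and Sox10, Mlana, Tyr, Tyrp1 and Dct had none, so the melanocytic label rests on Mitf alone here. All 5 leukocyte markers were under 1 CPM in both libraries. The 5 fibroblast markers summed to 14.7 CPM with ADAR1i-124 and 38.05 CPM with the combination, mostly on Pdgfra (13.03 and 15.4 CPM) and Col1a1 (1.64 and 20.9 CPM), with Thy1 and Lum at 0. The 3 endothelial markers summed to 4.36 and 26.7 CPM, mostly on Cdh5 (3.68 and 23.8 CPM). The part of these cell-type markers in the results was not tested.

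At least 4-fold, 426 genes rose (3.11%) and 233 fell (1.7%) of the 13708 compared, and the median log2 change over all genes was 0.00. At least 2-fold, 1358 genes were higher and 864 lower. Among genes averaging 10 CPM or more, 123 rose and 176 fell, so the excess of rises lies in scarce genes. The reference transcripts Actb and Gapdh were slightly lower (−0.33 and −0.37), and the ribosomal-RNA-like loci Gm42418 and Gm26917 were at 0.11 and 0.75. The risen genes were largely scarce without 5-AZA-CdR: 268 of the 426 were under 1 CPM in the ADAR1i-124 library, 172 had at most 3 counts there and 62 had none. The fallen genes were well counted in that library, and 29 of the 233 ended under 1 CPM in the combination. Germline genes, satellite-like transcripts, Xist, interferon-stimulated genes and chemokines were among those that rose. Genes of mitosis and the replication-dependent histones made up 45 of those that fell.

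**Figure D1:**
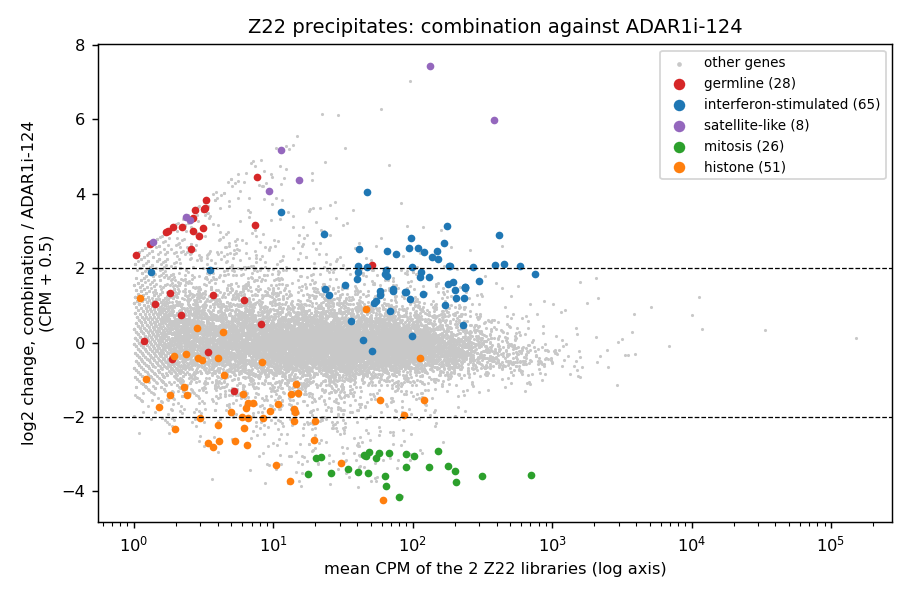
Log2 change of each of the 13708 genes between the Z22 combination and Z22 ADAR1i-124 libraries (vertical axis) against the mean CPM of both libraries (horizontal log axis); dashed lines mark 4-fold, and members of 5 gene groups are coloured with the number compared. All 8 satellite-like genes and 18 of the 28 germline genes lie above the upper line, interferon-stimulated genes lie above 0 with 1 exception and 25 of them above the upper line, and all 26 mitosis genes lie below the lower line.

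Transcripts built of satellite repeats were among the largest rises. Pericentromeric satellite DNA is heavily methylated in normal cells and its transcripts can come from both strands. Gm26870, a long non-coding RNA gene on the minus strand of chromosome 9 (GRCm38, chr9:3000282-3038313), rose from 11.3 to 752 CPM, a log2 change of 5.99 (interval 5.83 to 6.28). One unit of its longest exon, at chr9:3038080-3038313 on the minus strand, is shown with CG dinucleotides in capitals, although no reads were matched to it:
Gm26870 repeat unit: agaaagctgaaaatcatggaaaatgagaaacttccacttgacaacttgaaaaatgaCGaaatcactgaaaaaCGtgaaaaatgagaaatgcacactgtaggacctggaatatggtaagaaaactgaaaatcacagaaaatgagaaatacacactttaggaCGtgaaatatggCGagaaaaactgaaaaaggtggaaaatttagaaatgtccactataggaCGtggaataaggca
The exon of 586 bases matched itself at a shift of 234 bases with 92.9% identity, and the unit shown holds 5 CG dinucleotides. By a search made after the values were seen, 13 annotated genes shared at least 20 of the 20-base words of the Gm26870 transcript: 10 on chromosome 9, Gm10800 and Gm10801 on chromosome 2, and Gm21738 on chromosome 14. The copies on chromosome 9 overlap on opposite strands, so reads may have been split among genes and strands. The group was built from Gm26870, and both Gm26870 and Gm10800 were named for their rise. They hold 6878 and 2416 of the 10074 summed counts of the combination, so the sum mainly restates them.

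All 13 satellite-like genes were higher in the combination, though Gm10715, Gm10720 and Gm10721 had only 1 or 2 counts there against 0. The 8 that passed the CPM minimum all rose, where 3.11% of all genes rose. Of these 8, 6 were under 1 CPM with ADAR1i-124 and so passed through the library where they were high. The summed level of the 13 was 14.1 CPM (207 counts) with ADAR1i-124 alone and 1101 CPM (10074 counts) with the combination, a 78-fold difference with a counting interval of 68.0 to 90.0. Gm10800 (chr2:98666547-98667301) rose from 1.02 to 264 CPM, the largest change where both libraries averaged 10 CPM or more, at 7.44 (interval 7.29 to 8.85). Gm11168 rose from 2 to 207 counts, or 0.136 to 22.6 CPM, at 5.18 (interval 5.50 to 10.43). The remaining Z22 libraries held a summed 15.1 CPM with DMSO and 316 CPM with 5-AZA-CdR alone, so the combination library was the highest of the 4. In the J2 libraries the order of the last pair was the other way, with 41.2 CPM for DMSO, 59.2 for ADAR1i-124, 4967 for 5-AZA-CdR and 3406 for the combination. The IgG library held 7.24 CPM.

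**Figure D2:**
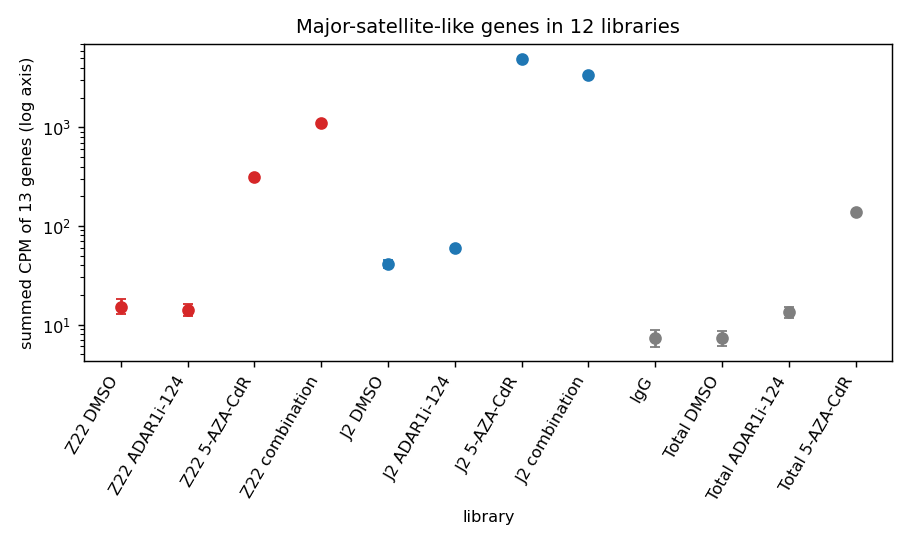
Summed CPM of the 13 satellite-like genes (vertical log axis) in 12 libraries, with exact 95% Poisson intervals that are mostly smaller than the points; Z22 is red, J2 blue, IgG and total RNA grey. The combination stands at 1101 CPM against 14.1 CPM for ADAR1i-124 alone in Z22, and both J2 libraries with 5-AZA-CdR stand at 3406 CPM or more.

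Germline genes are silenced in body cells largely by promoter methylation and are the best known targets of demethylating drugs. Of the 75 germline genes, 59 had a count in either Z22 library, 52 of them higher and 7 lower in the combination. The CPM minimum was passed by 28 genes, 18 of which were under 1 CPM without 5-AZA-CdR and so passed through the library where they were high. Among these 28, 18 rose and none fell, where 3.11% of all genes rose, and the median change was 2.75, or 3.04 with the 7 genes at 0 counts set to their lower bound. Because the minimum selects members that are high in the combination, this median is a description only, and it was 1.15 with no filter and 1.47 with an offset of 2 CPM. The summed level of all 75 genes in Z22 went from 55.2 CPM for ADAR1i-124 to 241 CPM for the combination. It was 51.3 CPM for DMSO and 361 CPM for 5-AZA-CdR alone, the highest of the 4 libraries. In J2 the sum was 79.6 CPM with ADAR1i-124 and 298 CPM with the combination.

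Tex19.1, which helps restrain transposons in germ cells, rose from 0.205 to 15 CPM (3 and 137 counts, 4.46, interval 4.62 to 8.49). Its Z22 level was 0 CPM with DMSO and 18.9 CPM with 5-AZA-CdR alone. Dazl, an RNA-binding protein of germ cells, rose from 1 to 58 counts (3.59, interval 4.0 to 11.87), and Mov10l1, a helicase of the piRNA pathway, from 1 to 59 counts (3.61, interval 4.03 to 11.89). Nlrp4c, an oocyte gene of the NLR family, had no count with ADAR1i-124 and 60 with the combination, at least 32.1-fold higher, and Tex101, a germ-cell surface protein, had none and 50, at least 26.7-fold higher. Meiotic and piRNA genes Sycp1, Sycp3, Tex15, Stag3, Piwil2 and Tdrd9 also rose, by 2.37, 2.64, 3.0, 2.96, 3.08 and 3.17. Tdrkh (−1.3), Zcwpw1 (−0.44) and Msh5 (−0.26) were the members with lower values.

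The word CACGTG, the E-box bound by MAX-type factors that keep germline genes silent, was searched on both strands of the RefSeq promoters (GRCm38, 250 bases before to 50 after the start, 1 per gene). It was present in 17 of the 62 germline promoters matched (27.4%), in 7 of the 15 matched for the risen members (46.7%), in 10.5% of the 9319 promoters matched for the genes compared and in 7.67% of all 20580. The germline promoters held a median of 16 CG dinucleotides. The promoters of the 2 most changed members that hold the word are shown with it in capitals; Mov10l1 lies at chr15:88982744-88983043 on the plus strand and Taf7l at chrX:134476441-134476740 on the minus strand:
Mov10l1 promoter: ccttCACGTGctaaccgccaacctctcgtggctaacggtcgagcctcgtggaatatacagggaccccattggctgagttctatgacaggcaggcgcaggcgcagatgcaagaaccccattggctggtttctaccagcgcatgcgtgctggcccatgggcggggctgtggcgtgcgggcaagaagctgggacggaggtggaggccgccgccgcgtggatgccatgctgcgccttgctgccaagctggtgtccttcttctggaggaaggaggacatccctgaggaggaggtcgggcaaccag
Taf7l promoter: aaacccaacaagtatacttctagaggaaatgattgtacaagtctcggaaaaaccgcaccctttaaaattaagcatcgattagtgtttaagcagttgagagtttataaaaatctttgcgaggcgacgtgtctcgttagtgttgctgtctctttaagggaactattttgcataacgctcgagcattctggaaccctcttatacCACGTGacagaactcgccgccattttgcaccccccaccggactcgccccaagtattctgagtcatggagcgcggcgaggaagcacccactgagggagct
A match is a string of letters and does not show that a factor was bound. Taf7l, a testis form of a general transcription factor subunit, rose by 3.34.

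Xist, the RNA that coats the inactive X chromosome (chrX:103460366-103483254, minus strand), rose from 14 to 1733 counts, or 0.955 to 189 CPM, at 7.03 (interval 6.88 to 8.51). It had no count in the Z22 library of DMSO-treated cells and stood at 264 CPM with 5-AZA-CdR alone, and in J2 it went from 0.278 to 333 CPM. Genes of the X chromosome, Xist included, had a median of −0.17 over 428 genes, with 16 risen (3.74%) and 9 fallen (2.10%), near the 3.11% and 1.7% of all genes. Of 29 multicopy X-linked germline genes 19 were higher and 1 was lower, but most were too scarce to compare, and the 1 that passed the minimum, Xlr, stood at 7.09 and 16.5 CPM (1.16).

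Interferon-stimulated genes encode the sensors, effectors and antigen-presentation proteins of the antiviral response. Of 65 members compared 64 were higher in the combination, 25 rose and none fell, where 3.11% of all genes rose and 1.7% fell, with a median of 1.78 (quartiles 1.37 and 2.12) beside 0.00 over all genes. The summed level of all 68 genes listed was 4123 CPM with ADAR1i-124 alone and 14121 CPM with the combination. Without the inhibitor the sums were 8134 CPM with DMSO and 9508 CPM with 5-AZA-CdR, so the combination library was the highest and that of ADAR1i-124 alone the lowest of the 4. In total RNA the same genes summed to 10523 CPM with DMSO and 2033 CPM with ADAR1i-124, so the level from which they rose was also low before precipitation. With 5-AZA-CdR alone their total RNA sum was 16757 CPM.

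Zbp1 (chr2:173206612-173218923, minus strand) rose from 4.98 to 89.6 CPM, or 73 to 820 counts, at 4.04 (interval 3.82 to 4.54), the largest change of the list. Its Z22 level was 19.7 CPM with DMSO and 38.8 CPM with 5-AZA-CdR, and in IgG it was 9.27 CPM. Irf7, the transcription factor that amplifies interferon production, rose from 35.8 to 315 CPM (3.12, interval 3.0 to 3.28), against 136 CPM with DMSO and 134 CPM with 5-AZA-CdR. H2-K1, a classical MHC class I heavy chain, rose from 98.9 to 740 CPM (2.90, interval 2.82 to 2.99), and Psmb8, an immunoproteasome subunit, from 5.05 to 41.5 CPM (2.92, interval 2.68 to 3.42). In Z22 the combination library was the highest of the 4 for each of these genes. In J2 5-AZA-CdR alone was higher than the combination for all of them, with Zbp1 at 130 and 118 CPM, Irf7 at 403 and 357 CPM, H2-K1 at 1087 and 1046 CPM and Psmb8 at 75.9 and 46.6 CPM. The weakest members were Samhd1 (−0.23), Ifi27 (0.08) and Ifit2 (0.18).

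Among the 24 genes of double-stranded RNA sensing 17 were higher, 5 rose and none fell (median 1.02), where 3.11% of all genes rose and 1.7% fell. The 5 were Zbp1 and the oligoadenylate synthetases Oas2 (2.81), Oas1g (2.50), Oas3 (2.42) and Oas1a (2.39), enzymes that activate RNase L. All 5 are also on the interferon-stimulated list, so this count is not separate from the one given for that list. Ifih1, which encodes the long-duplex sensor MDA5, was at 111 and 294 CPM (1.41, interval 1.32 to 1.50). Adar itself was at 125 and 285 CPM (1.19, interval 1.10 to 1.28), and Eif2ak2, the kinase PKR, at 192 and 267 CPM (0.47, interval 0.40 to 0.55). None of these 3 reached 4-fold. The adaptor Mavs (−0.53), the helicase Dhx9 (−0.46) and the double-stranded RNA-binding factor Ilf2 (−0.86) had lower values.

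Of 10 genes of the necroptosis machinery 2 rose, Zbp1, which is also on both preceding lists, and Ripk3, and none fell (median 0.07), where 3.11% of all genes rose. Ripk3, the kinase that phosphorylates MLKL, had no count with ADAR1i-124 alone and 22 with the combination, at least 11.8-fold higher, though at 2.41 CPM it stayed scarce. It passed the minimum through the combination library, and with an offset of 2 CPM its change of 1.14 did not reach 4-fold. Mlkl, the membrane-disrupting effector, was at 138 and 204 CPM (0.56, interval 0.48 to 0.66). Ripk1 (0.13), Casp8 (−0.15) and Fadd (−0.42) changed by less.

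The interferon response element was searched as GAAANNGAAA on both strands of the same promoter set. It was found in 24 of the 53 matched promoters of the interferon-stimulated list (45.3%) and in 11 of the 21 matched for its risen members (52.4%), beside 3.10% for the genes compared and 10.6% for all genes that rose. The 2 most changed members with a match are shown with it in capitals; Bst2, the virion tether tetherin, lies at chr8:71537423-71537722 on the minus strand and Gbp2, a guanylate-binding protein, at chr3:142620413-142620712 on the plus strand:
Bst2 promoter: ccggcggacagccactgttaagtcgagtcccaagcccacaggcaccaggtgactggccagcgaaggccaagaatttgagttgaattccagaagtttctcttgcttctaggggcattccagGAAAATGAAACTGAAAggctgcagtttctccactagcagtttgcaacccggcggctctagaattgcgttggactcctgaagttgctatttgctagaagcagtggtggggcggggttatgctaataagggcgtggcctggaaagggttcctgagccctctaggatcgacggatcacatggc
Gbp2 promoter: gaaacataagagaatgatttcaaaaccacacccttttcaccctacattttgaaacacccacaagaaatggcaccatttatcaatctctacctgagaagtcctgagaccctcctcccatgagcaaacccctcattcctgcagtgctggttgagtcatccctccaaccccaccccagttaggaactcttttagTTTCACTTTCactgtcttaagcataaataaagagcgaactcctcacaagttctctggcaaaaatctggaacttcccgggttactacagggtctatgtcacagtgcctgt
The 2 matches of Bst2 overlap. Bst2 rose by 2.68 and Gbp2 by 2.53, and the median CG count of the list's promoters was 6, beside 21 for the genes compared.

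Chemokines and NF-κB targets were higher as well, with 18 of 19 above 0, 9 risen and none fallen (median 1.91), where 3.11% of all genes rose. Of the 19, 5 were under 1 CPM with ADAR1i-124 and passed the minimum through the combination library, so the count and the median are partly set by it. The neutrophil attractant Cxcl2 rose from 0.409 to 19.24 CPM (6 and 176 counts, 4.44, interval 4.40 to 7.02). Cxcl1 rose from 34.7 to 284 CPM (3.01, interval 2.90 to 3.17), and in the Z22 libraries without the inhibitor it was at 7.33 CPM with DMSO and 80.6 CPM with 5-AZA-CdR. Ccl7 (3.34), Ccl5 (2.82) and Ccl20 (2.68) rose too, while the adhesion receptor Vcam1 was lower (−0.61). Some genes named as the largest rises encode secreted proteins of inflammation; they were taken from the ranking and are not a list. Lcn2, a siderophore-binding protein, rose from 5 to 531 counts, or 0.341 to 58.1 CPM (6.12, interval 6.18 to 9.04). C3, the central complement component, rose from 1.23 to 64.2 CPM (5.23), and Slpi, a secreted protease inhibitor, from 4.36 to 132 CPM (4.77). Saa3 rose from 1 to 191 counts and Csf3, which encodes G-CSF, from 3 to 235 counts. All of them were also higher with 5-AZA-CdR than with DMSO in Z22, by between 2.06 (Saa3) and 5.27 (C3).

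**Figure D3:**
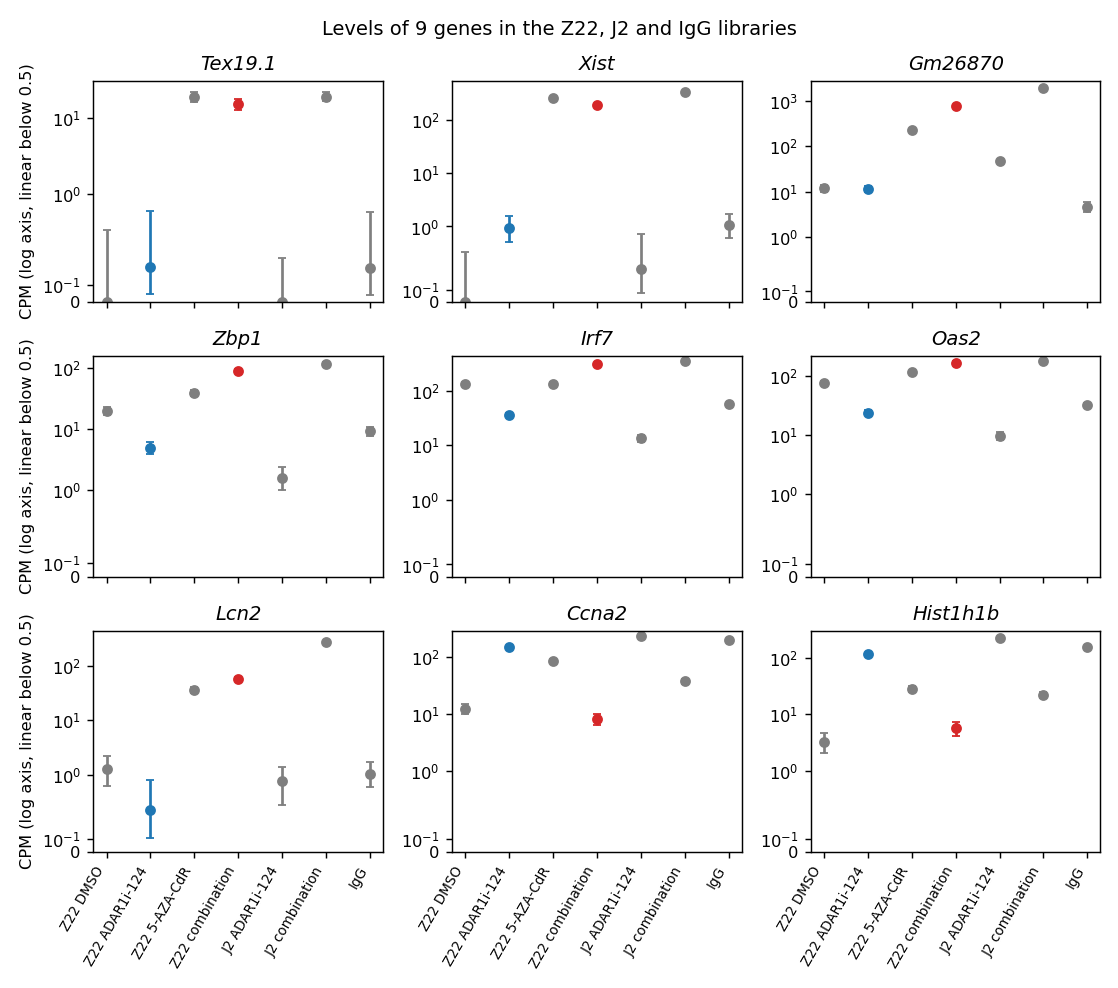
Levels of 9 genes in CPM (vertical axis, logarithmic above 0.5 CPM and linear below) in the 4 Z22 libraries, the J2 libraries of ADAR1i-124 and the combination, and IgG, with exact 95% Poisson intervals. Red marks the Z22 combination and blue Z22 ADAR1i-124; Zbp1 goes from 4.98 to 89.6 CPM and Ccna2 from 150 to 7.98 CPM.

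Genes of mitosis fell together. All 26 members of the list fell, with a median of −3.35 and a range from −4.15 to −2.90, where 1.7% of all genes fell. Their summed level was 5315 CPM with ADAR1i-124 alone and 494 CPM with the combination, and 2740 CPM with DMSO and 3175 CPM with 5-AZA-CdR. The combination library was thus the lowest of the 4, below that of 5-AZA-CdR alone. In IgG the sum was 4973 CPM. Ccna2, which encodes cyclin A2, fell from 150 to 7.98 CPM (2205 and 73 counts, −4.15, interval −4.59 to −3.90). Top2a, the topoisomerase that untangles sister chromatids, fell from 585 to 48.3 CPM (−3.58, interval −3.74 to −3.46), and Cenpe, a kinetochore motor, from 380 to 27.9 CPM (−3.74, interval −3.96 to −3.59). With DMSO the Z22 levels varied among these members, at 12.1 CPM for Ccna2, 283 CPM for Top2a and 323 CPM for Cenpe. Outside the list Aspm, a spindle-pole protein, fell by 4.13, Kif14, a kinesin of cytokinesis, by 3.89, and Tk1, the S-phase thymidine kinase, by 3.73. In J2 all 26 list members were lower too, between −2.82 and −1.93, and 25 of the 26 fell. For the named members the J2 library of ADAR1i-124 was the one that stood apart: Ccna2 was at 227 CPM there and at 45.6 with DMSO, 42.0 with 5-AZA-CdR and 37.1 with the combination. Cenpe was likewise at 320 CPM with ADAR1i-124, and at 69.2, 55.9 and 62.1 CPM in the other J2 libraries in the same order.

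The cell-cycle homology region was searched as TTTGAA on both strands. It was found in 16 of the 22 matched promoters of the mitosis list (72.7%) and in 77 of the 164 matched for all fallen genes (47.0%), beside 11.9% for the genes compared and 14% for the risen genes. The 2 most changed members with a match are shown with it in capitals; Hmmr, a spindle-associated receptor, lies at chr11:40733388-40733687 and Top2a at chr11:99024140-99024439, both on the minus strand:
Hmmr promoter: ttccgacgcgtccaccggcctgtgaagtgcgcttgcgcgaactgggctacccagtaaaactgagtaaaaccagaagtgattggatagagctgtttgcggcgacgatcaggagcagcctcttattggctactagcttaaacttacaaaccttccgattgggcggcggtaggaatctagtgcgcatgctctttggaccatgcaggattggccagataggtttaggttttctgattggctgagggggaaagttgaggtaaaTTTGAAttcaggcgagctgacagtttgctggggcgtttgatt
Top2a promoter: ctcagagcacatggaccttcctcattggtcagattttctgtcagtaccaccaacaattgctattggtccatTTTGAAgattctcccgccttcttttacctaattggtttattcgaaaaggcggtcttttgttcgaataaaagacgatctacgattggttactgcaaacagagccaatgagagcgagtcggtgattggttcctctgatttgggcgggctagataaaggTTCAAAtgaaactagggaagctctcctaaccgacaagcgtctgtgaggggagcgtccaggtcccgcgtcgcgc
Hmmr fell from 121 to 7.87 CPM (−3.86, interval −4.31 to −3.61).

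Histone genes fell less evenly. Of 51 compared 47 were lower and 19 fell (median −1.72), where 1.7% of all genes fell, and none rose. Of the 51, 8 were under 1 CPM in the combination and passed the minimum through the ADAR1i-124 library, so the count and the median are partly set by it. The replication-dependent histone genes lie in clusters, and chromosome 13, which carries the Hist1 cluster, had 26 fallen genes of 563. Hist1h1b, a linker histone (chr13:21779883-21780625), fell from 116 to 5.69 CPM (1706 and 52 counts, −4.24, interval −4.78 to −3.96), the largest fall where both libraries averaged 10 CPM or more. Its Z22 level was 3.21 CPM with DMSO and 27.9 CPM with 5-AZA-CdR, so the DMSO library was lower still. Hist1h2bh fell from 24.8 to 1.42 CPM (−3.72, interval −5.05 to −3.33). Hist2h2aa2 (1.20), Hist1h2bc (0.89), Hist3h2a (0.39) and Hist1h2ac (0.28) were the members with higher values. Copies of these genes are near-identical, so reads of 1 copy may have been assigned to another.

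Of 12 genes of DNA methylation and its readers 1 fell and none rose (median 0.02), where 1.7% of all genes fell and 3.11% rose. Uhrf1, which brings DNMT1 to newly replicated DNA, fell from 239 to 50.4 CPM (−2.23, interval −2.39 to −2.10). Dnmt1, the maintenance enzyme, was at 493 and 202 CPM (−1.28, interval −1.36 to −1.21), Dnmt3a at 70.0 and 74.9 CPM (0.10, interval −0.04 to 0.24) and Dnmt3b at 2.73 and 1.97 CPM (−0.39, interval −1.36 to 0.36), the latter pair within counting error of no change. In the Z22 library of DMSO-treated cells Uhrf1 was at 33.1 CPM, below the combination, and Dnmt1 at 447 CPM, above it. Of 19 genes that silence repeats 13 were lower and none reached 4-fold. Hells, a remodeller that aids methylation of repeats, was at 118 and 29.4 CPM (−1.99), and Suv39h1, a methyltransferase of pericentromeric histone H3, at 46.4 and 11.8 CPM (−1.93). With DMSO the Z22 levels of Hells and Suv39h1 were 17.0 and 11.2 CPM, below the combination. Suv39h2, a relative of Suv39h1, went the other way, from 10.8 to 43.6 CPM (1.97).

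Hyper-edited regions are stretches densely converted by ADARs, and the list of them used here rests in part on editing sites called in libraries of this series, so it is not independent evidence of direction. Of 229 genes with an exon on such a region that passed the minimum, 78 were higher and 151 lower, 2 rose and 4 fell (median −0.16 beside 0.00 over all genes), where 3.11% of all genes rose and 1.7% fell, so the count of falls is at the background. The 2 were Tapbp, the peptide-loading factor tapasin (54.1 and 321 CPM, 2.56, interval 2.45 to 2.68), and the MHC class I gene H2-D1 (2.07). The 4 were the mitotic genes Hmmr (−3.86), Mad2l1 (−2.95) and Gen1 (−2.94) and the MAX-network gene Mxd3 (−2.59). Wdr76 and Gnl3l, some of the genes that the study describes as carrying inverted repeats, were at 20.9 and 6.78 CPM (−1.55, interval −2.04 to −1.22) and at 97.9 and 66.8 CPM (−0.55, interval −0.69 to −0.41). A further list held genes on regions that the study gives as double-stranded RNAs induced by the demethylating drug. Of its 66 genes compared 51 were higher, 7 rose and none fell, with a median of 0.69 (1.13 in J2), where 3.11% of all genes rose. Of the 66, 3 were under 1 CPM with ADAR1i-124 and passed the minimum through the combination library, Snhg14 and Slfn5 among them. That list too was chosen on samples of the study, so it is not independent evidence. Snhg14, a long host transcript of small nucleolar RNAs, rose from 1 to 134 counts (4.74, interval 5.24 to 13.06), Slfn5, an interferon-responsive gene, from 3 to 140 counts (4.49) and Tnfrsf26 from 1.3 to 36.8 CPM (4.38). A whole-gene count cannot show whether the reads came from the hyper-edited stretch.

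RNAs with strong structure gave mixed values. Of 4 structured and 7 nuclear long non-coding RNAs compared Xist alone rose and none fell, where 3.11% of all genes rose and 1.7% fell. Xist was at 0.955 CPM with ADAR1i-124 and passed the minimum through the combination library. Rn7sk, the 7SK RNA that holds the elongation factor P-TEFb, was at 3460 and 6697 CPM (0.95, interval 0.94 to 0.97), against −0.03 in J2. Malat1 (1.23) and Neat1 (1.63), both nuclear long non-coding RNAs, were higher without reaching 4-fold, with Neat1 at 780 and 2408 CPM. Of the signal recognition particle RNAs, Rn7s2 was lower (−0.77) and Rn7s1 higher (0.40, interval 0.07 to 0.76). Of the 7 nuclear RNAs 5 were higher and 2 lower, Gas5 (−0.66) and Snhg1 (−0.75). Of 22 small nucleolar RNAs compared 15 were lower and none reached 4-fold. Of 19 genes of the mitochondrial genome, whose transcripts arise from both strands, 16 were lower and none reached 4-fold (median −0.25, from −0.73 to 0.37). The summed level of the mitochondrial genes went the other way, from 49443 to 59335 CPM, because the ribosomal RNAs mt-Rnr1 (0.37) and mt-Rnr2 (0.34), which hold most of these counts, were among the 3 higher members. Ribosomal protein genes were lower in 82 of 86 (median −0.41) by small amounts, and 2 tissue-restricted paralogues rose, where 3.11% of all genes rose. Both passed the minimum through the combination library: Rps4l from 0 to 87 counts, at least 46.5-fold higher, and Rpl39l from 1 to 27 counts (interval 2.83 to 10.79). With an offset of 2 CPM the change of Rpl39l was 1.26, short of 4-fold.

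**Figure D4:**
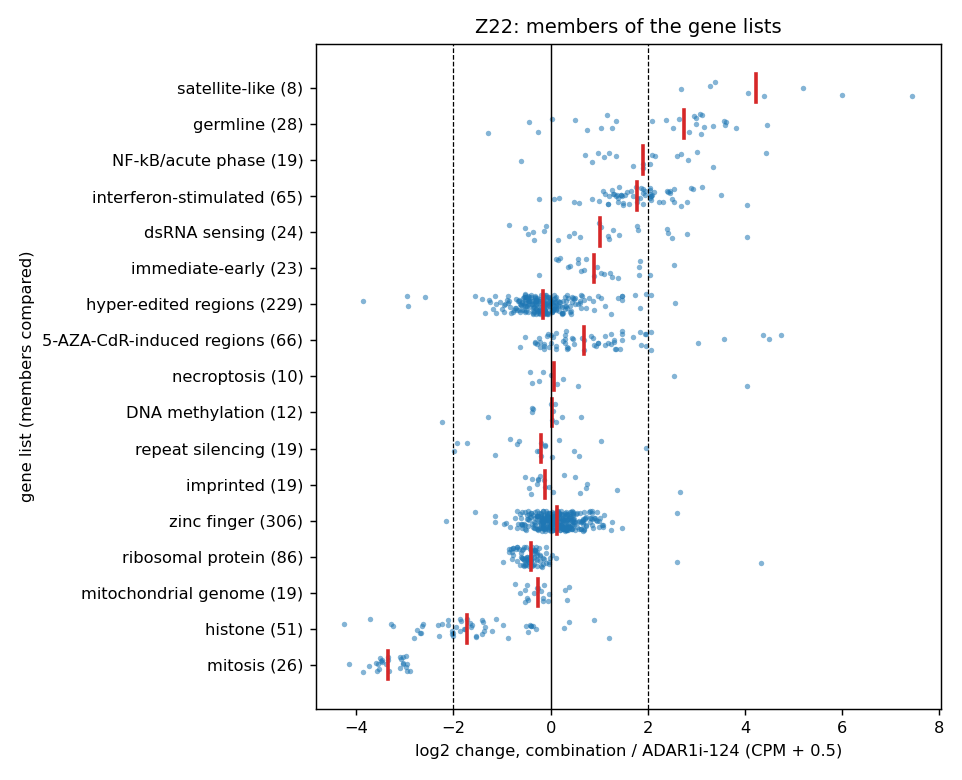
Log2 change between the Z22 combination and Z22 ADAR1i-124 libraries (horizontal axis) for every compared member of 17 gene groups (vertical axis, number compared in brackets); each point is a gene, red bars are medians, dashed lines mark 4-fold. Medians run from −3.35 for mitosis to 1.78 for interferon-stimulated and 2.75 for germline genes. Of the 8 satellite-like genes 6, and of the 28 germline genes 18, passed the CPM minimum through the combination library, so the place of those groups is partly set by the minimum.

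The same treatments precipitated with J2 shared no library with the Z22 pair and gave 655 risen genes (4.78%) and 115 fallen genes (0.839%) over the same 13708. Across genes the changes in Z22 and J2 had a Pearson correlation of 0.87 and a Spearman correlation of 0.82, as a description, since genes share libraries and depth. Of the 426 genes that rose in Z22, 359 also rose in J2 and all 426 were above 0. Of the 233 that fell, 104 fell in J2 and all 233 were below 0. The median difference, Z22 change less J2 change, was −0.11. The interferon-stimulated list had a median of 1.78 in Z22 and 2.93 in J2, with 25 and 51 risen members of 65. Its summed level was 4123 CPM in the Z22 library of ADAR1i-124 and 2684 CPM in the J2 one, and 14121 and 16162 CPM in the combination.

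The Z22 change was lower than the J2 change by at least 2 log2 units in 44 genes and higher in 8. In 43 of the 44 the ADAR1i-124 level was higher in Z22 than in J2, in 40 the combination level was lower in Z22 than in J2, and 6 of the 44 are on the interferon-stimulated list. Ifit3, an interferon-induced antiviral protein, was at 148 CPM in Z22 and 18.3 CPM in J2 with ADAR1i-124 alone, and at 630 and 640 CPM with the combination. Y-linked Ddx3y and Kdm5d and the matrix gene Mgp were in the same group; Ddx3y was at 8.32 CPM in Z22 and 1.46 CPM in J2 with ADAR1i-124 alone. The 8 genes in the other direction included Dpep1 (4.84 in Z22 and 2.83 in J2) and Plin4 (3.60 and 1.58), both at 0 counts in the Z22 library of ADAR1i-124, and Bc1, a brain cytoplasmic RNA (0.38 and −1.82). These genes were chosen after their values were seen.

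**Figure D5:**
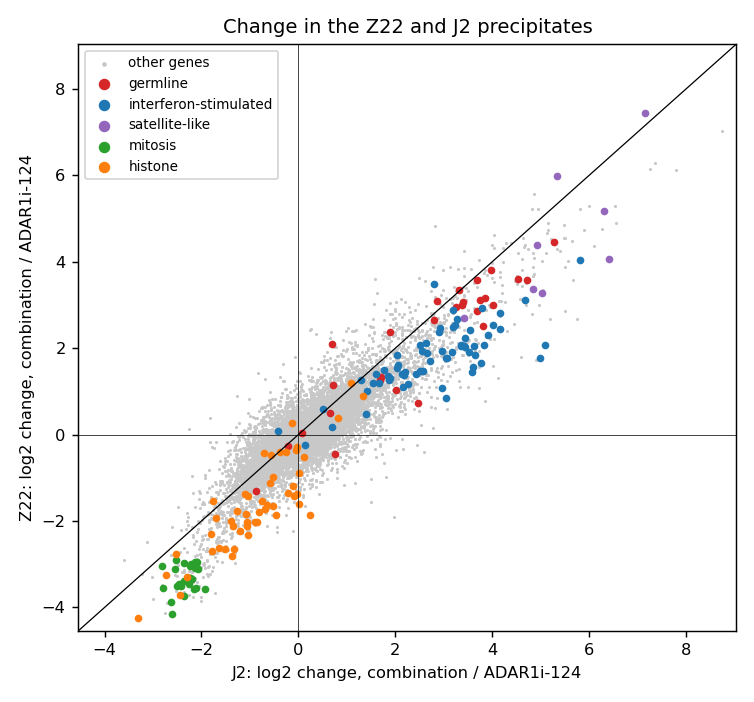
Log2 change between combination and ADAR1i-124 in the Z22 libraries (vertical axis) against the same in the J2 libraries (horizontal axis) for the 13708 genes; the diagonal marks equal change. Interferon-stimulated genes lie mostly below the diagonal (medians 1.78 in Z22 and 2.93 in J2), and mitosis genes lie below it as well (−3.35 and −2.25).

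5-AZA-CdR against DMSO without the inhibitor is the closest comparison of the same drug. In Z22 it gave 2651 risen genes (19.3%) and 119 fallen genes (0.868%), with a median over all genes of 1.06, so values there are read against that shift. Germline genes had a median of 3.16 in that comparison and mitosis genes 0.96, against 2.75 and −3.35 in the main one. Of the 426 risen genes 245 also rose there, and of the 233 fallen 6 fell. In total RNA, where the median over all genes was 0.03, 679 genes rose (4.95%) and 251 fell (1.83%) with 5-AZA-CdR. There 237 of the 426 rose and 155 of the 233 fell, with a Pearson correlation of the changes of 0.68, beside 0.18 for the Z22 comparison of 5-AZA-CdR with DMSO. The mitosis median was −2.90 in total RNA, the germline median 1.62 and the interferon-stimulated median −0.07. These 3 comparisons share no library with the main one, although the RNA may come from the same cultures, which is not stated.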

How the data were processed

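Total RNA and RNA precipitated with J2, Z22 or IgG after RNase I and DNase digestion was sequenced in 13 libraries. The authors mapped the reads to GRCm38 (mm10) with STAR in snakePipes and deposited 1 table of raw counts per gene, not normalized; the counting tool and its strand setting are not given in the sources used here. Gene identifiers were matched to GENCODE, which named 54495 of 54532. The counts were used as deposited. CPM were computed on column sums, changes as log2 after adding 0.5 CPM, for genes averaging 1 CPM or more. Each condition had 1 library, so nothing was tested. Totals ranged from 1245894 to 34571822 counts. Intervals are exact Clopper-Pearson intervals at 95% and cover counting error only, because reads carry no molecular identifiers. Named genes are the 15 largest rises and falls among genes averaging 10 CPM or more, the up to 5 most changed members of each list, every member of a list of at most 8 genes, and 13 fixed genes; others were chosen after their values were seen. The members, lists and tests were chosen with earlier results of these data known. Scaling by edgeR TMM or DESeq2 size factors, column sums without abundant genes, other offsets, filters and a 2-fold line were alternatives. Promoters came from RefSeq and were matched by symbol, and none of the 70 histone genes matched. The simple summaries were tested on simulated data. Python 3.11.15, numpy 2.4.6, pandas 2.3.3, scipy 1.17.1, R 4.3.3, edgeR 4.0.16 and DESeq2 1.42.0 were used.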

Additional observations from a re-analysis of the deposited data

Results flagged for a closer look

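Relative to the median of all genes, 12 of 25 gene lists with at least 5 genes had opposite signs in Z22 with the inhibitor present (combination against ADAR1i-124) and absent (5-AZA-CdR against DMSO), and in 3 of them both values were at least 0.5 in size, which is why they are given here. Each value is the list's median log2 change less that of all genes. The interferon-stimulated list was at 1.78 with the inhibitor and −0.76 without it. The immediate-early list was at 0.89 and −1.06, and the list of integrated stress response targets at 0.64 and −2.2. Without that subtraction the interferon-stimulated median without the inhibitor was 0.30, with 45 of 65 genes above 0, so its sign rests on the shift of all genes. The unsubtracted medians of the other two were −0.0055 and −1.14. The differences were not tested, since each condition has 1 library. The comparison without the inhibitor rests on the Z22 library of DMSO-treated cells, which has 34.9% of its counts on Gm42418 and a median change of all genes of 1.06. The part of that library in these differences was not tested. In total RNA, where that library is not used, the medians for 5-AZA-CdR against DMSO were −0.07 for the interferon-stimulated list, 1.34 for the immediate-early list (22 of 23 above 0, the direction of the combination) and −1.13 for the integrated stress response list.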

How the results depend on the processing

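The counts of genes at least 4-fold changed were 426 higher and 233 lower. The count of higher genes was 176 with an offset of 2 CPM and 123 with a minimum mean of 10 CPM (beside 158 and 176 lower), because most of the risen genes are scarce in the ADAR1i-124 library. With a 2-fold line the counts were 1358 and 864. Under the scaling alternatives they ranged from 382 to 553 higher and from 231 to 248 lower.

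The median change of all genes, 0.00, became −0.070 with edgeR TMM factors, −0.090 with DESeq2 size factors, 0.082 without the 20 most abundant genes in the column sums, 0.036 without the ribosomal-RNA-like loci, −0.062 with the minimum of 10 CPM and 0.10 with no filter. The germline median of 2.75 became 3.86 with an offset of 0.1 CPM, 1.47 with an offset of 2 CPM and 1.15 with no filter. The median of genes on hyper-edited regions, −0.16, became −0.25 with DESeq2 size factors, and that of genes on 5-AZA-CdR-induced regions, 0.69, became 0.34 when introns counted. The interferon-stimulated median of 1.78 ranged from 1.69 to 1.85 over the alternatives run.

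Of 474 values of named genes past 4-fold, 463 stayed past it and 11 did not: Ier3 under TMM and DESeq2 scaling and 9 others with an offset of 2 CPM. The 9 were Tex101, Plagl1, Ripk3, Hist1h2bk, Rpl39l, Zfp575, Zfp101, Col11a2 and Mxd3. No named gene past 4-fold changed sign. The list medians for DNA methylation, necroptosis, imprinted, collagen and small nucleolar genes changed sign in 8 of 230 alternative values.

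No paired analysis was possible because each condition has 1 library and the labels carry no replicate numbers. Without replicates, no alternative shows how a second culture or precipitation would vary.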

Other observations

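The stress response lists differed in direction, and few of their members passed 4-fold; 1 risen member in a list of about this size is near the 3.11% of all genes that rose. Of 23 immediate-early genes 22 were higher and 2 rose, Atf3, a stress-induced transcription factor (11 and 66.6 CPM, 2.54, interval 2.34 to 2.85), and Ier3 (64.5 and 269 CPM, 2.05). Ier3 did not reach 4-fold with TMM (1.98) or DESeq2 (1.96) scaling. Of 18 targets of the integrated stress response 15 were higher and 1 rose, Ddit3, which encodes CHOP (15.5 and 77 CPM, 2.27, interval 2.09 to 2.53). In the Z22 library of DMSO-treated cells Ddit3 was at 189 CPM. Of 19 NRF2 targets 15 were higher and none reached 4-fold, with Slc7a11, the cystine transporter, at 84.0 and 330 CPM (1.97) and Hmox1, haem oxygenase, at 114 and 323 CPM (1.50). Of 22 p53 targets 13 were higher and 9 lower, and 1 rose, Gdf15, from 4 to 86 counts (3.68, interval 3.70 to 7.02), while Cdkn1a, which encodes the cell-cycle inhibitor p21, was at 147 and 287 CPM (0.97). Of 14 heat shock genes 6 were higher and 8 lower (median −0.12), and the chaperonin Hspd1 was at 907 and 425 CPM (−1.09).

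Collagen genes were split. Of 21 compared 8 were higher and 13 lower, 3 rose and 1 fell, where 3.11% of all genes rose and 1.7% fell. Col1a1 rose from 1.64 to 20.9 CPM (3.32, interval 3.06 to 4.35), although the Z22 library of DMSO-treated cells held 66.8 CPM of it, and Col8a1 fell from 72.2 to 12 CPM (−2.54, interval −2.88 to −2.30). Cdh5, an endothelial cadherin counted among markers of other cell types, rose from 3.68 to 23.8 CPM (2.54, interval 2.26 to 3.15), and the other endothelial markers were higher too, Pecam1 at 0.546 and 2.30 CPM (8 and 21 counts) and Kdr at 0.136 and 0.547 CPM (2 and 5 counts).

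Of 19 imprinted genes compared 8 were higher and 1 rose, again near the share over all genes, Plagl1, a zinc-finger growth regulator, from 0.955 to 8.75 CPM (2.67, interval 2.37 to 4.13). Peg10 (−0.53) and Kcnq1ot1 (0.05) did not reach 4-fold. Zinc-finger genes, which include many repressors of retroviruses, had 184 of 306 higher, with a median of 0.12; Zfp575 rose from 0 to 23 counts, at least 12.3-fold higher, and Zfp101 fell from 17.3 to 3.50 CPM (−2.15). Gdf15, Plagl1 and Zfp575 were under 1 CPM with ADAR1i-124 and passed the minimum through the combination library. With an offset of 2 CPM Plagl1 (1.86), Zfp575 (1.17) and Zfp101 (−1.81) did not reach 4-fold. By class of gene, 29 of 244 long intergenic non-coding RNAs rose (11.9%), against 336 of 11409 protein-coding genes (2.95%). Unprocessed pseudogenes (6 of 35, 17.1%) and miscellaneous RNAs (3 of 17, 17.6%) had higher shares, and 0 of 41 small nucleolar RNAs rose. The classes were not matched for level. Of the 16 pigmentation genes Mitf alone passed the minimum (1.11), and Lce1g was the 1 of 14 late cornified envelope genes that did, at 7.09 and 15 CPM.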
